A study of Mus musculus with 12 samples.

Results

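Gene expression was compared between KC1 and KC4, which are 2 of the 4 mouse lung adenocarcinoma cell lines of this study. The comparison used the 3 arrays of KC1 and the 3 arrays of KC4, so 6 of the 12 arrays, chosen by their labelled line. Both lines were labelled K-rasLA1/+; Cdkn1a-/- on a 127s background. KC1 was labelled highly metastatic and KC4 poorly metastatic. The labels state that the lines came from 6 primary lung tumours of 4 mice and were cultured in RPMI with FBS, and they do not say which mouse or tumour gave which line. Each array was labelled a biological replicate of its line. With 1 line on each side, line and metastatic class cannot be told apart, and every difference below is one between these 2 lines. The same transcript can be lower because fewer cells of a line carry it or because each cell carries less, and RNA of whole cultures cannot tell these apart.

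The K-rasLA1 allele carries an oncogenic form of K-ras that becomes active when it recombines spontaneously in single cells, and lung adenocarcinomas follow. K-ras signals through the MAP kinase cascade. Cdkn1a encodes p21, an inhibitor of cyclin-dependent kinases that p53 induces. Tumour cells that spread lose contacts with their neighbours, cut through matrix and exchange signals with blood cells and stroma. The genes that carry out these steps, among them cadherins, claudins, metalloproteases, chemokines and the ligands of the BMP and TGF-beta families, are described here by role.

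Values are array signals, which are linear brightness values per probe set. Signals under 16 were set to 16, and differences are on the log2 scale, KC1 minus KC4, so 1 unit is a doubling. A gene was called when its limma adjusted p was under 0.05 and its difference was at least 1 in size. Cdkn1a was read first, since the mice lacked it. Its brighter probe set gave 8209, 7876 and 7307 in KC1 and 4831, 3875 and 4359 in KC4. The signal was high in both lines and higher in KC1 by 0.84 (SE 0.097, limma adjusted p = 0.00022), under the minimum for a call. The other Cdkn1a probe set lay under 16 on all 12 arrays. The exons that these probe sets cover are not known here, so neither of them checks the genotype.

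Both lines had epithelial transcripts. KC4 also had the basal keratin gene Krt14 (4504 to 5228). Other basal genes did not follow it, since Krt5 and Trp63 were not called and Krt15 lay at the floor in both lines. The intermediate filament gene Vim gave 3783 to 4052 in KC1 and 11870 to 13790 in KC4. Of 11 epithelial markers, 0 lay at the floor. Cdh1, the gene of E-cadherin, gave 11230, 14530 and 13080 in KC1 and 15810, 13820 and 16680 in KC4. The keratin genes Krt8 and Krt18 exceeded 14000 on all 6 arrays. The summed signal of the epithelial markers ran from 110700 to 117500 in KC1 and from 80480 to 94370 in KC4. Some markers of alveolar type 2 cells were dim. Napsa, an alveolar type 2 protease gene, lay at the floor on all 6 arrays, Sftpc, a surfactant protein gene, gave 90.4 to 126, and Nkx2-1, the lung lineage factor, gave 5.27 to 55.6. The 9 alveolar type 2 markers summed to 2742 to 2969 in KC1 and to 2938 to 3385 in KC4. Most of that signal came from members other than Napsa, Sftpc and Nkx2-1. Of these markers, Sftpd was called higher and Nkx2-1 lower in KC1.

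The lists for other cell types (club, ciliated, neuroendocrine, leukocyte, endothelial, fibroblast and smooth muscle, mesothelial and red cell) held 0 called genes. Leukocyte markers summed to 903 to 1361 in KC1 and to 1171 to 1376 in KC4. For endothelial markers the sums were 615 to 779 and 668 to 872, with Tie1 and Vwf at the floor, and for fibroblast and smooth muscle markers 845 to 1120 and 754 to 1277, with Pdgfrb at the floor. Mesothelial markers summed to 9952 to 10630 and 9251 to 10270, nearly all of it from Msln, which gave 9814 to 10560 in KC1 and 9107 to 10120 in KC4. Spearman's rho across genes, which are not independent replicates, was 0.981 to 0.983 between arrays of one line and 0.956 to 0.960 between KC1 and KC4 arrays. Replicate arrays spread by a median SD of 0.405 (log2) in genes whose mean was under 6 and of 0.084 in genes at 10 and over, so differences of bright genes are the more precise ones. All 3 control probe sets for 18S ribosomal RNA were higher in KC4 with no overlap. The 5-prime one gave 535, 600.2 and 679 in KC1 and 2706, 2828 and 4383 in KC4. The 3-prime controls for Actb and Gapdh overlapped between the lines. The part of the ribosomal signal in the differences below was not tested.

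KC1 and KC4 differed in 1008 of 18193 genes (5.54%). Of these, 635 were higher in KC1 (3.49% of all genes) and 373 lower (2.05%). The median difference over all genes was -0.00, and that of the called genes was 1.61 on the higher side and -1.46 on the lower side. A difference of at least 4, which is 16-fold, was reached by 37 higher and 11 lower genes. Of the called genes, 1003 had no overlap between the 3 KC1 and the 3 KC4 signals. A call already asks for a difference beyond the spread of the arrays, so this count follows largely from the rule. The share without overlap over all genes is not given here. KC4 lay at the floor on all its arrays for 37 of the higher genes, and KC1 did so for 22 of the lower ones, so the differences of these genes are lower bounds in size. The same holds for a gene with some arrays of its dimmer line under 16.

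**Figure D1:**
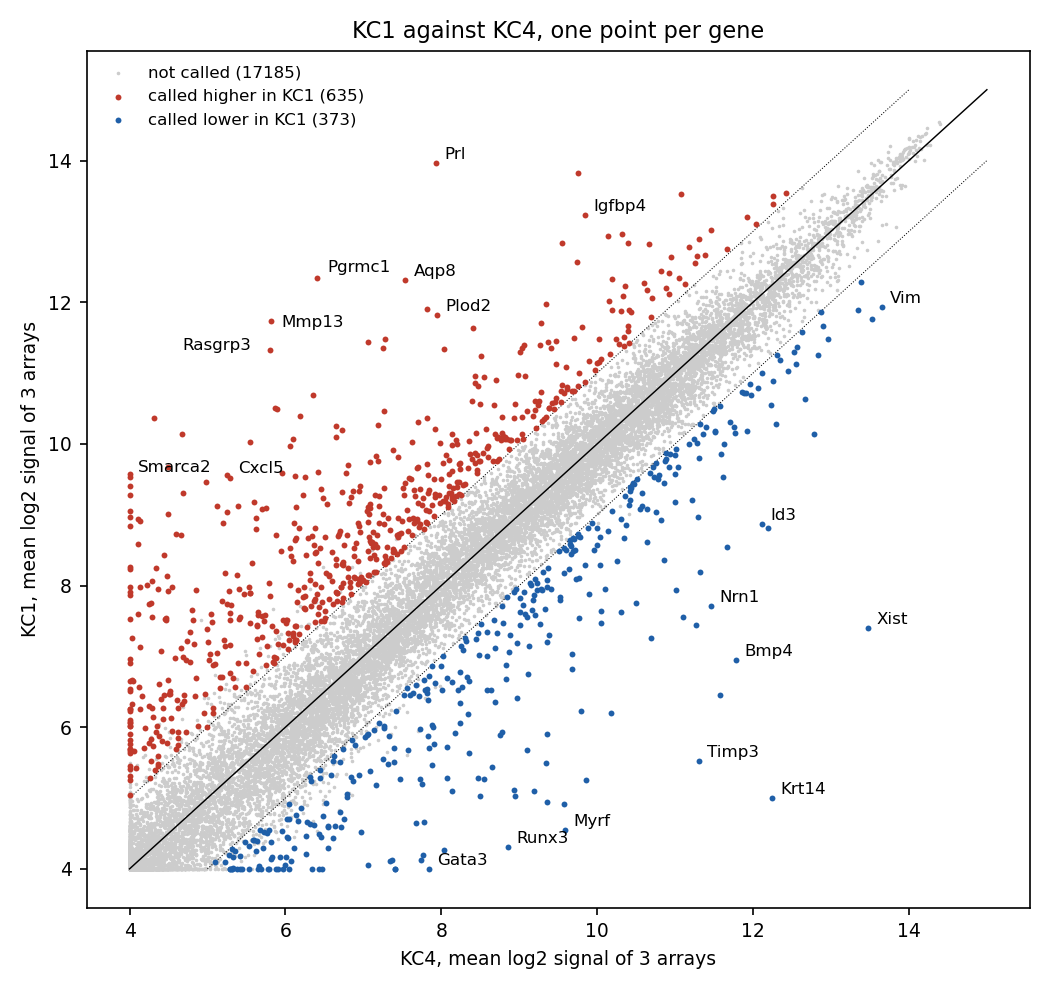
Each point is 1 gene, placed by its mean log2 signal over 3 KC4 arrays (x axis) and 3 KC1 arrays (y axis). Red points (635) were called higher and blue points (373) lower in KC1. The dotted lines mark a difference of 1, and points on the left or lower edge lie at the floor of 4.

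The largest differences toward KC1 among genes above the floor on all 6 arrays are given first. Prl, the gene of the hormone prolactin, gave 16430, 15620 and 15880 in KC1 and 257, 302 and 186 in KC4. The KC1 signals lay near the top of the array's range, and the difference was 6.04 (SE 0.65, limma adjusted p = 0.000146). Pgrmc1, a heme-binding membrane protein, gave 5208, 5007 and 5331 against 102, 98.2 and 61.2. The collagenase gene Mmp13 gave 3288, 3433 and 3548 against 54.0, 68.3 and 48.5. Pgrmc1 and Mmp13 both differed by 5.93, with an SE of 0.17 for Pgrmc1 and 0.13 for Mmp13. Rasgrp3, an exchange factor that activates small GTPases of the Ras and Rap families, gave 2563, 2556 and 2555 against 46.0, 55.7 and 68.5 (difference 5.51, SE 0.12).

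Next by size came genes of transport, adhesion and other roles. The water channel gene Aqp8 gave 5172, 4835 and 5255 in KC1 against 153, 207 and 203 in KC4 (4.77, SE 0.11). Nectin3, an adhesion molecule of the immunoglobulin family, gave 1394, 1468 and 1503 against 88.8, 48.8 and 46.3 (4.63, SE 0.22). Of 5 other Nectin3 probe sets, 3 were called in the same direction, and 1 did not move (302 against 287 in the mean). The tubulin gene Tuba8 gave 1584, 1618 and 1166 against 37.6, 149 and 37.0 (4.61, SE 0.48), and its other probe set differed by 0.88. The ubiquitin ligase gene Rnf128 gave 2687, 2804 and 2856 against 136, 148 and 118 (4.38, SE 0.17). Gpr85, an orphan receptor gene, gave 489, 543 and 515 against 31.6, 16.8 and 21.4 (4.52, SE 0.20), and 2 of its 3 other probe sets were not called (0.60 and -0.18). The 12 largest differences of genes above the floor also held Mdfic, a regulator of transcription factors (1671, 1601 and 1710 against 75.9, 88.4 and 81.1), the chemokine gene Cxcl5 and the Y-linked Uty. In none of the 12 did a KC4 array reach a KC1 array, which follows largely from a ranking by size.

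The largest differences toward KC4 follow by the same ranking. Bmp4, a secreted ligand of the BMP family, gave 3890, 3287 and 3438 in KC4 and 114, 116 and 141 in KC1, a difference of -4.84 (SE 0.11, limma adjusted p = 1.07e-08). Ildr2, a membrane protein gene of the immunoglobulin family, gave 2686, 3284 and 3197 in KC4 against 76.6, 97.3 and 91.6 in KC1 (-5.11, SE 0.12). Transcription factor genes belonged here too. Myrf, known as a regulator of myelin genes, gave 547, 885 and 944 in KC4 and 24.4, 19.4 and 27.1 in KC1 (-5.04, SE 0.21). Pparg, a nuclear receptor of lipid metabolism, gave 467, 479 and 518 in KC4 and 31.9, 45.4 and 28.6 in KC1 (-3.82, SE 0.17). Both were low on every KC1 array.

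Cyp26b1, whose enzyme degrades retinoic acid, gave 692, 866 and 746 in KC4 and 28.8, 25.9 and 37.4 in KC1 (-4.66, SE 0.20). The water channel gene Aqp1 gave 961, 926 and 897 in KC4 and 24.2, 44.2 and 52.7 in KC1 (-4.60, SE 0.45). Cdh2, the gene of N-cadherin, gave 635, 653 and 676 in KC4 and 27.6, 29.9 and 35.1 in KC1 (-4.42, SE 0.096). Water channels thus lay on both sides of the comparison, Aqp8 with KC1 and Aqp1 with KC4. Nrn1, the gene of the membrane-anchored protein neuritin, gave 3042, 2710 and 2731 in KC4 and 203, 203 and 221 in KC1 (-3.76, SE 0.097). Padi3, which turns arginine into citrulline in proteins, gave 2580, 2252 and 2555 in KC4 and 195, 168 and 160 in KC1 (-3.82, SE 0.11). Klhl30 (-3.85, SE 0.38) and the predicted gene Gm2115 (-3.97, SE 0.13) completed the lower 12 with Xist. No KC1 array reached a KC4 array for any of them, which again follows largely from the ranking.

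**Figure D2:**
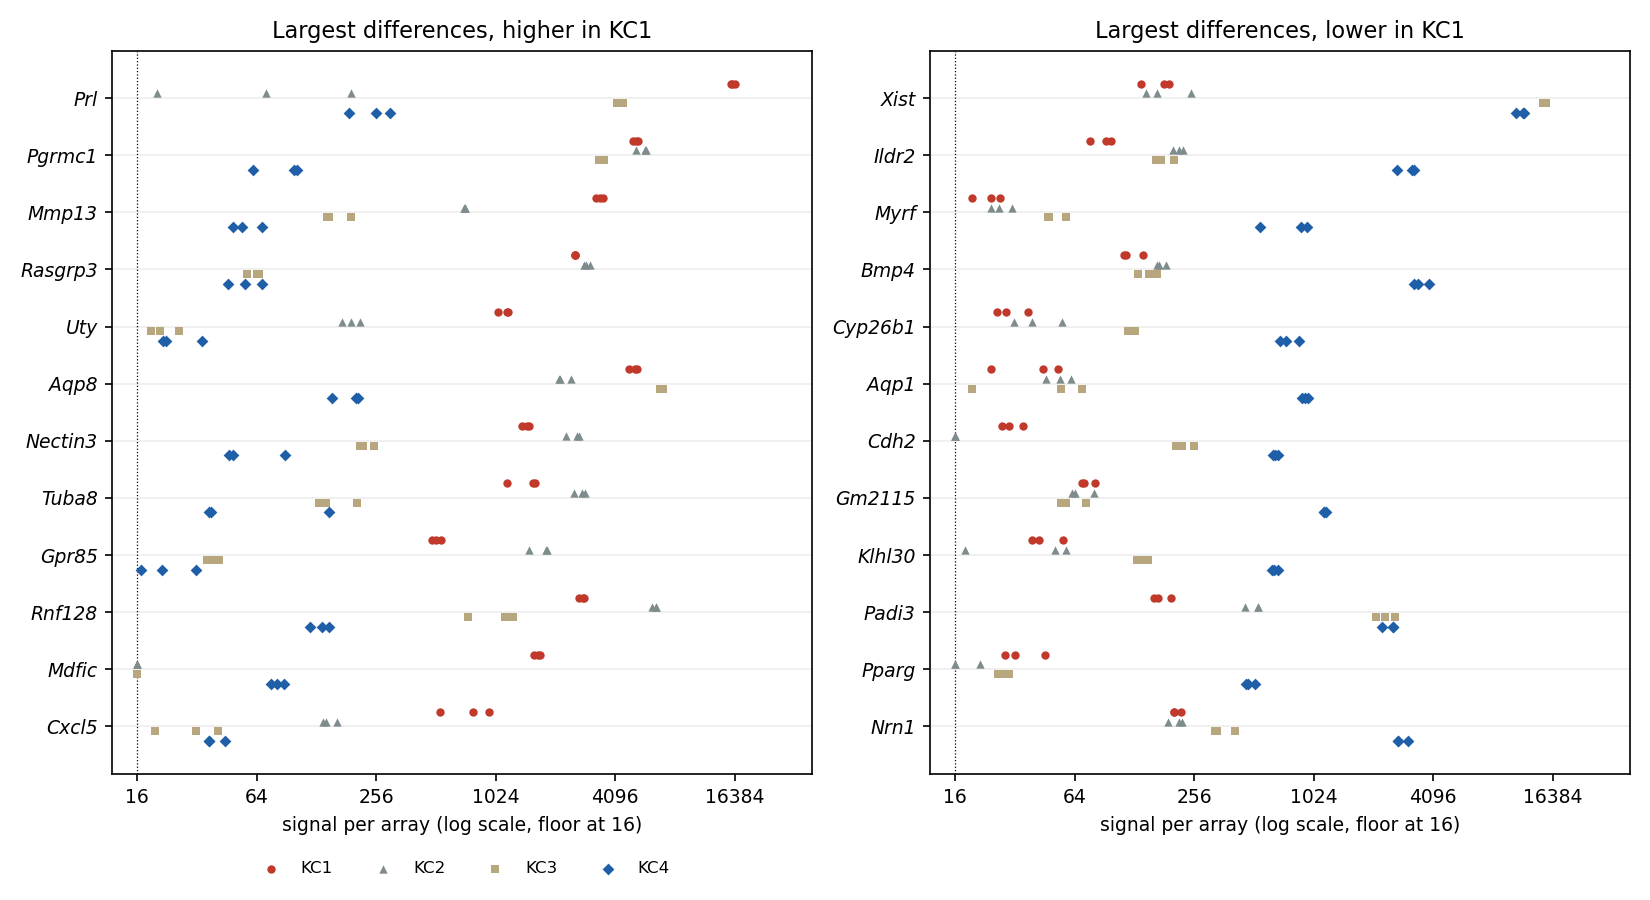
The 12 higher (left) and 12 lower (right) genes with the largest differences among genes above the floor on all KC1 and KC4 arrays. Each symbol is the signal of 1 array on a log axis, with KC2 and KC3 drawn for reference, and the dotted line is the floor of 16. KC1 and KC4 do not overlap in any of the 24 genes, which were picked by the size of that difference. KC2 and KC3 lie with KC1 in some genes and with KC4 in others.

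Genes of the sex chromosomes were split between the lines. Xist, the RNA that coats the inactive X chromosome in female cells, gave 11790, 10710 and 11620 in KC4 and 180, 139 and 192 in KC1 (-6.07, SE 0.18). Its 2 other probe sets were lower in KC1 as well (-8.27 and -5.37). The Y-linked Uty gave 1049, 1173 and 1175 in KC1 and 33.9, 21.6 and 22.5 in KC4 (5.48, SE 0.18). Eif2s3y, another Y-linked gene, gave 1331, 1356 and 1266 in KC1 and 30.5, 3.49 and 9.36 in KC4, and Kdm5d gave 766, 883 and 816 against 15.3, 30.8 and 23.3. The lines therefore differed in sex-chromosome transcripts along with every other difference described here, and the part of sex in those differences was not tested.

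Some genes were readable in one line and at the floor in the other. Nexmif, a neuronal gene on the X chromosome, gave 749, 820 and 729 in KC1 and at most 4.51 in KC4, a difference of at least 5.58, and its 3 other probe sets agreed in direction. Otud1, a deubiquitinase gene, gave 538, 655 and 678 against at most 8.45 (at least 5.28, limma adjusted p = 3.23e-09). Tmlhe, the first enzyme of carnitine synthesis, gave 430, 571 and 505 against at most 3.82 (at least 4.96). Fhit, a gene at a fragile site, gave 533, 546 and 513 against at most 15.7 (at least 5.05). Smarca2, an ATPase subunit of the SWI/SNF chromatin remodelling complex, gave 730, 747 and 753 against at most 4.31 (at least 5.54). A second Smarca2 probe set had the same mean in both lines (96.8 and 95.8), so this difference rests on 1 probe set.

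On the KC4 side the floor group held 22 of the 373 lower genes, a share close to that of 37 of the 635 higher ones. The genes named here were dimmer than those on the KC1 side. Gata3, a transcription factor of luminal epithelia and T cells, gave 214, 257 and 219 in KC4 and at most 5.95 in KC1 (-3.84 or further from 0, limma adjusted p = 0.00011). The ubiquitin ligase genes Trim47 (191, 173 and 149 in KC4) and Pdzrn3 (140, 163 and 213 in KC4) lay under 13 on every KC1 array. Xdh, the xanthine dehydrogenase, gave 86.7, 70.8 and 105 in KC4 against at most 9.48. The brush-border protocadherin gene Cdhr2 gave 65.8, 74.2 and 59.3, and the basic helix-loop-helix gene Atoh8 gave 129, 35.6 and 53.5. Signals of this size vary more between arrays. With a floor of 64 in place of 16, Xdh, Cdhr2, Atoh8, Zfp709 and the magnesium transporter gene Slc41a2 lost their calls.

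A set of 44 lists of genes by function held 1484 measured genes, of which 201 were called. The lists were read by their counts and medians, against 3.49% higher and 2.05% lower over all genes. They were not tested as sets. Lists and members were chosen with earlier results of these data known. Shares above those of all genes can therefore follow from that choice, here and for every list below. Chemokines and colony-stimulating factors (7 higher and 1 lower of 36), claudins and tight junction genes (6 and 1 of 24) and gut-like and mucin genes (6 and 1 of 38) leaned to KC1. Mesenchymal genes (0 and 5 of 29), BMP pathway genes (2 and 7 of 27) and genes of the ATF4 and ER stress response (1 and 6 of 34) leaned to KC4. Mitosis, cytoplasmic ribosomal proteins and the respiratory chain held 0 called genes of 36, 25 and 40 by limma.

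**Figure D3:**
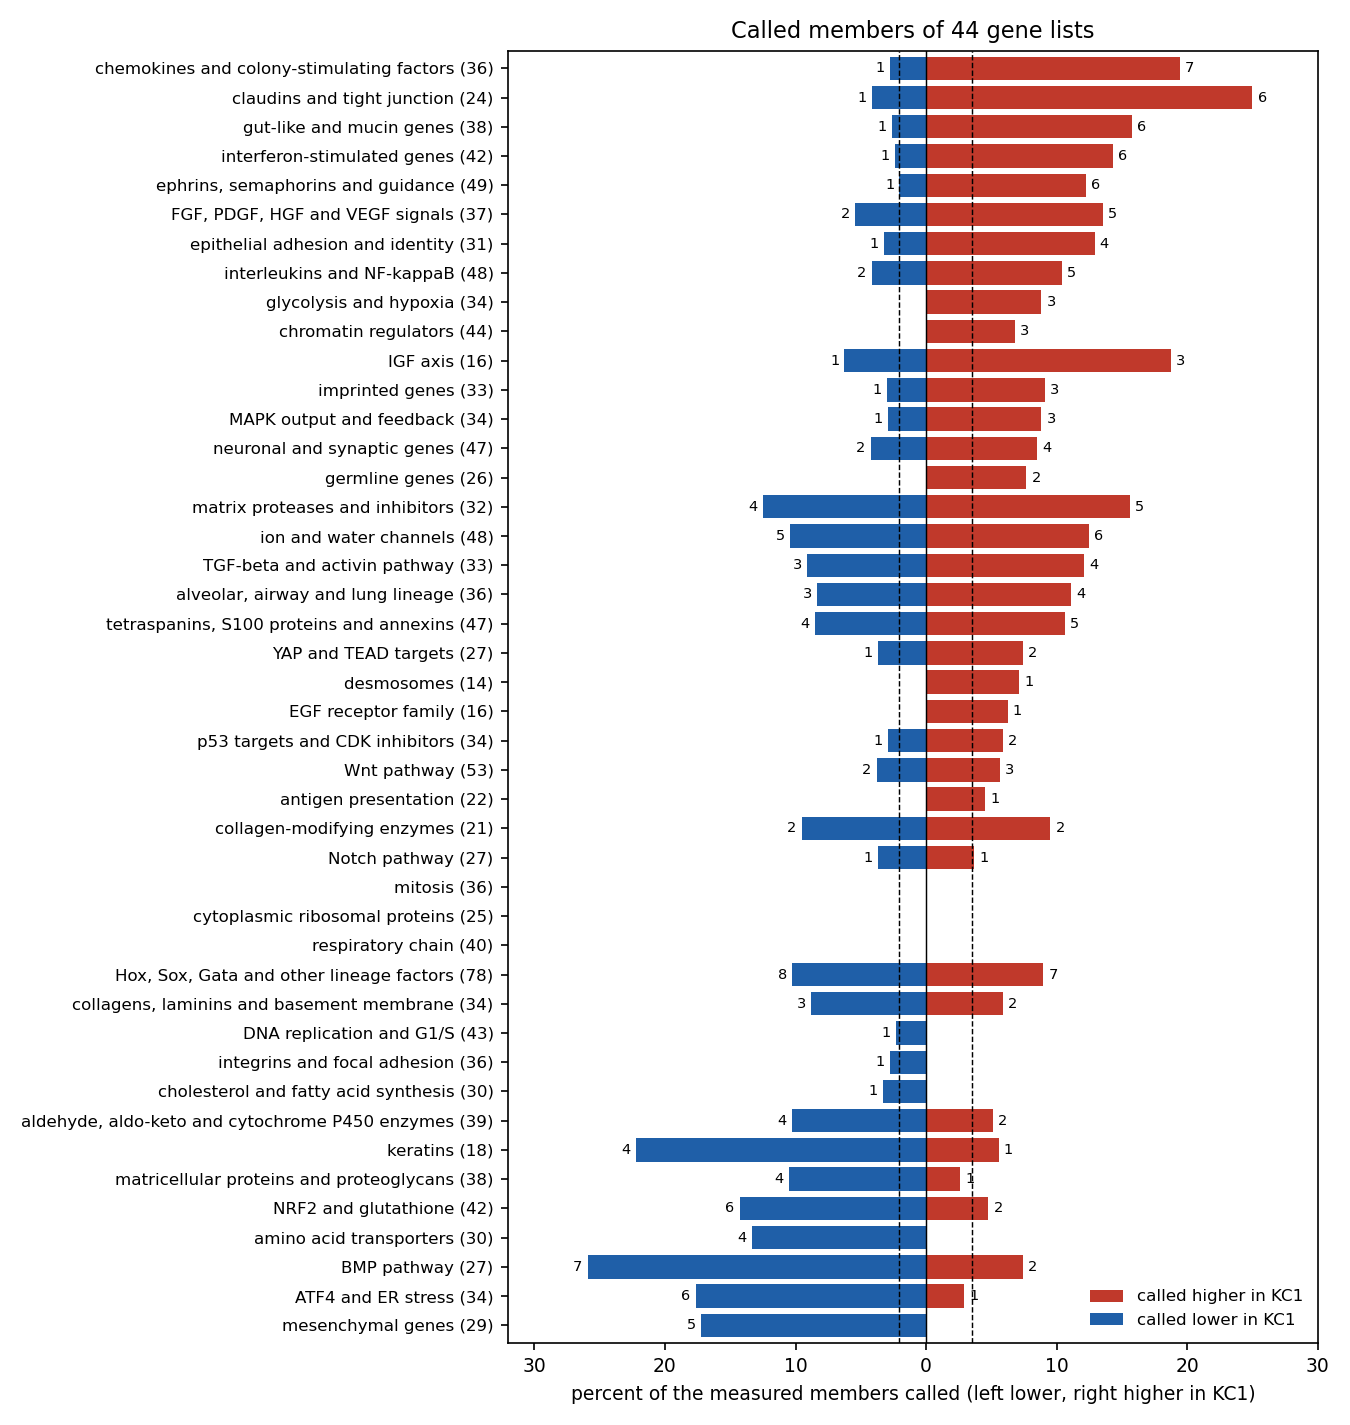
Percent of the measured members of each list (number in brackets) called higher (red, right) or lower (blue, left) in KC1, with the count at each bar. Dashed lines mark the share over all genes, 3.49% higher and 2.05% lower, and the lists are ordered by higher minus lower members.

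Several chemokines that attract neutrophils lie in a cluster on chromosome 5. Cxcl5, Ppbp, Pf4 and Cxcl3 are direct neighbours there among the measured genes, and all 4 were higher in KC1. They were the longest run of neighbouring genes called in 1 direction between the lines. RefSeq promoters (GRCm38.p6, plus strand) were found for 3 of the 4 and are shown for their differing elements, as the 250 bases before the start of the gene, 5′ to 3′. They lie at chr5:90768268-90768517 (Ppbp), chr5:90772185-90772434 (Pf4) and chr5:90785851-90786100 (Cxcl3). Capitals mark matches on either strand to a strict form of the kappaB site of NF-kappaB, with 1 free base. The other motifs were TTGCNNAA (C/EBP), TGANTCA (AP-1), TATAAA (the TATA box) and GGCGCC (a GC-rich SMAD element).
Ppbp: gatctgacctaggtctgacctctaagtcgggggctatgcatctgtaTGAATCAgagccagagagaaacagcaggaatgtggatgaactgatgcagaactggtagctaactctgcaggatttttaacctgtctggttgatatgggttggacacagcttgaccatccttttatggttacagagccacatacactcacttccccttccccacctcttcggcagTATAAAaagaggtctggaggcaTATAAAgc
Pf4: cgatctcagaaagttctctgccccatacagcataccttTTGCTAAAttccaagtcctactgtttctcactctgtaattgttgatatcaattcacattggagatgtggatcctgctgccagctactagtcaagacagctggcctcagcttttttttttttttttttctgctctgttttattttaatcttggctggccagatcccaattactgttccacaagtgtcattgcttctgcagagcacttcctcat
Cxcl3: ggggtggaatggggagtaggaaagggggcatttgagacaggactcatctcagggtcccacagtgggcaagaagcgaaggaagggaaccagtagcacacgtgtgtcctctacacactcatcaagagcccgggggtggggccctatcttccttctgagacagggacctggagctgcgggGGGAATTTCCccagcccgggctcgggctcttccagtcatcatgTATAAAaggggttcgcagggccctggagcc
Cxcl3 held the strict NF-kappaB form 73 to 64 bases before its start, a form in 0.337% of 27025 promoters of this length. Looser kappaB forms were not searched. Ppbp held an AP-1 match 204 to 198 bases before its start (6.87% of promoters), and Pf4 a C/EBP match 212 to 205 bases before (9.55%). A TATA box (in 3504 of the promoters) stood 30 to 25 bases before the start of both Ppbp and Cxcl3, and Ppbp had a second one. The 3 promoters thus shared no motif of this search, and a match describes letters, not binding.

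The 4 neighbours differed in size of signal. Cxcl5 gave 535, 791 and 943 in KC1 and 44.4, 36.7 and 36.7 in KC4 (4.24, SE 0.28). Ppbp gave 1120, 993 and 1020 against 15.7, 107 and 60.0 (4.47, SE 0.55). Cxcl3 gave 288, 360.0 and 393 against 16.5, 21.8 and 28.8 (3.98, SE 0.37). The platelet factor gene Pf4 was also readable in KC4, with 386, 385 and 368 against 78.4, 97.7 and 72.6 (2.21, SE 0.20). Other members of the same cluster were not called. Cxcl1 gave 2872, 2431 and 2375 against 1696, 1431 and 1834 (0.63), and Cxcl2 gave 66.5, 85.5 and 75.4 against 60.3, 92.1 and 110 (-0.17).

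Outside that cluster, the growth factor genes of myeloid cells and one lymphocyte attractant differed. Csf2, which encodes GM-CSF, gave 1093, 985 and 949 in KC1 and 162, 20.1 and 90.0 in KC4 (3.92, SE 0.61, limma adjusted p = 0.00128). Csf3, which encodes G-CSF, gave 765, 725 and 597 against 427, 292 and 253 (1.13, SE 0.20). Ccl20 gave 131, 34.4 and 153 against 18.9, 21.9 and 29.2 (1.95, SE 0.51), with 1 KC1 array close to KC4. Cxcl10, an interferon-induced chemokine, was the member lower in KC1, at 7.30, 13.4 and 69.0 against 97.1, 111 and 116, and it lost its call at a floor of 64. The median over the 36 members was 0.11.

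**Figure D4:**
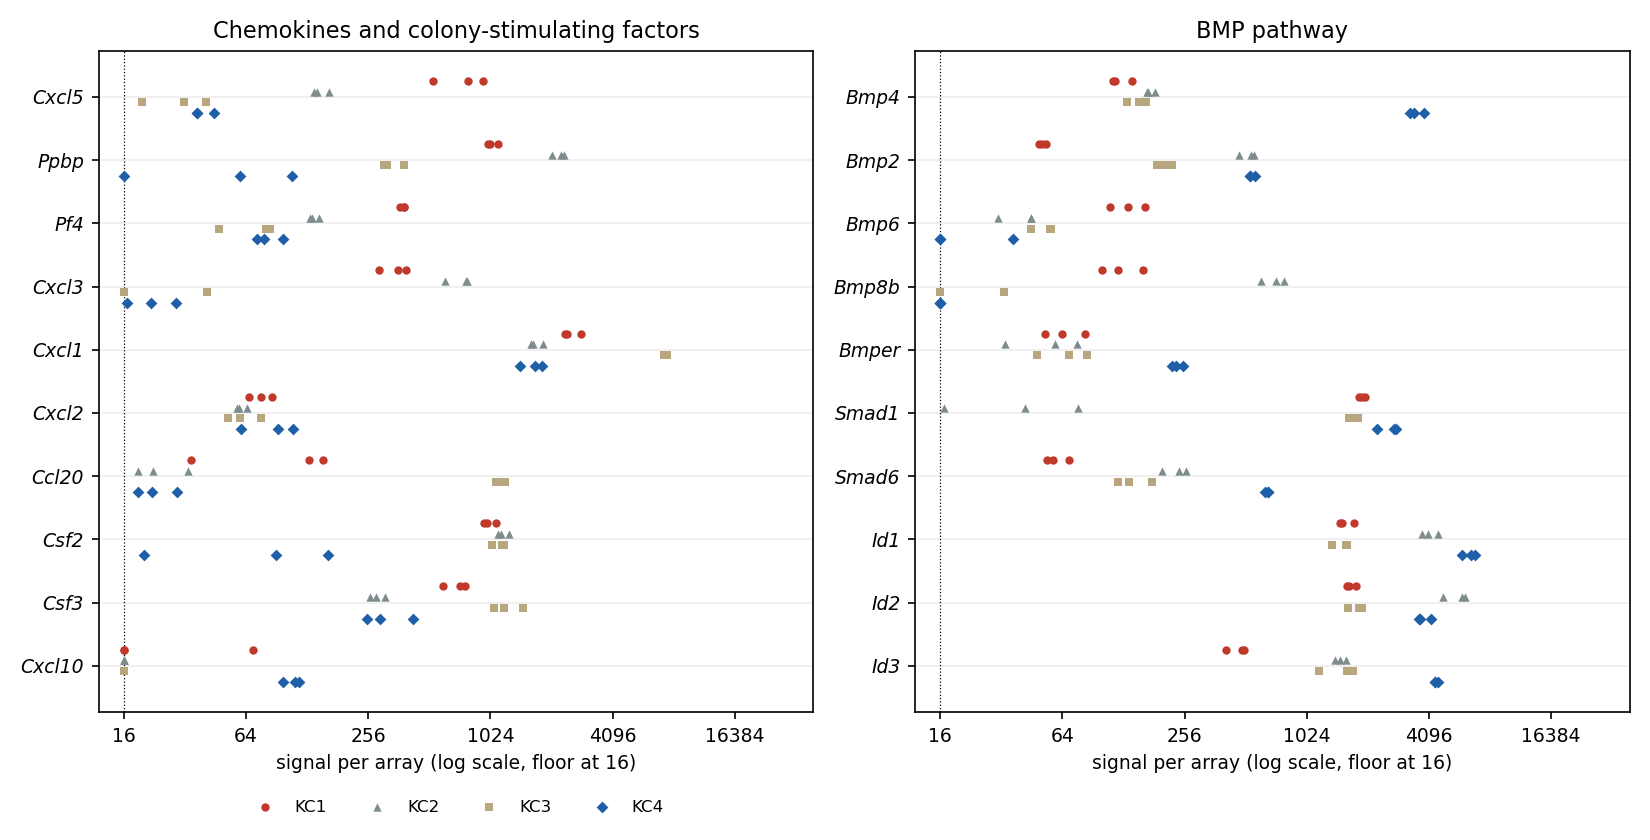
Signal of each array on a log axis for chemokine and colony-stimulating factor genes (left) and BMP pathway genes (right), with the floor of 16 dotted. KC1 (red circles) lies above KC4 (blue diamonds) for Cxcl5, Ppbp, Pf4 and Cxcl3, and below it for Bmp4, Bmp2, Smad6, Id1, Id2 and Id3.

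Among 48 interleukin and NF-kappaB genes, 5 were higher and 2 lower in KC1. Il23a, a subunit of interleukin 23, gave 696, 586 and 531 in KC1 against 73.7, 102 and 96.2 in KC4 (2.74, SE 0.13). Il18 (2.01, SE 0.10), the adhesion molecule gene Vcam1 (2.00, SE 0.14), the NF-kappaB inhibitor gene Nfkbie (1.65) and Ptgs2, the inducible cyclooxygenase (1.28), were also higher. Rel, an NF-kappaB subunit, was lower (-2.45, SE 0.43, lost at a floor of 64), as was Tnfaip2 (-1.23). Rela (0.07) and Nfkbia (0.18) were not called.

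Interferon-stimulated genes numbered 42, with 6 higher and 1 lower in KC1. Usp18, which removes ISG15 from proteins and dampens the interferon receptor, gave 1209, 1119 and 1207 in KC1 against 100.1, 123 and 97.9 in KC4 (3.47, SE 0.10). The others were Rtp4 (1.60), Gbp2 (1.52), the antiviral GTPase gene Mx1 (1.39), the transcription factor gene Irf1 (1.04) and the peptide transporter gene Tap1 (1.01). Tap1 overlapped between the lines and lost its call under quantile normalization, median centring and the mean of its probe sets. It was the 1 called gene among 22 of antigen presentation. Rtp4 and Gbp2 were dim and fell under the threshold at a floor of 64, and Cxcl10 did too.

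In the BMP pathway, ligands bind paired receptors, Smad1 and Smad5 carry the signal, and Id1, Id2, Id3 and Smad6 are among its well-known targets. In addition to Bmp4, the ligand gene Bmp2 was lower in KC1, at 49.2, 52.99 and 50.9 against 537, 569 and 539 (-3.43, SE 0.078, limma adjusted p = 1.2e-08). The ligand genes Bmp6 (164, 110 and 135 against 10.5, 36.7 and 13.7) and Bmp8b (120, 101 and 160.0 against at most 7.13) were higher in KC1. Called ligand genes thus went both ways. The secreted regulator gene Bmper was lower in KC1 (-1.85, SE 0.32).

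Receptors and signal carriers were not called. Bmpr1a differed by -0.43, Bmpr2 by -0.15, Acvr1 by -0.12, Smad1 by -0.44, Smad5 by -0.22 and Smad4 by 0.24. The antagonist genes Nog (0.29), Grem1 (0.21) and Chrd (-0.76) were dim and not called either. The targets were lower in KC1. Smad6, an inhibitory Smad, gave 53.5, 57.4 and 69.3 in KC1 and 662, 661 and 636 in KC4 (-3.45, SE 0.16). Id3 gave 505, 411 and 490 against 4372, 4537 and 4400 (-3.25, SE 0.14). Id1 (1744, 1501 and 1532 against 6947, 5928 and 6585, -2.03) and Id2 (1661, 1798 and 1619 against 3661, 4203 and 3716, -1.19) differed less. The summed signal of the 27 members was 15710 to 16710 in KC1 and 33180 to 34490 in KC4, and their median difference was -0.22.

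RefSeq promoters of 2 of these targets are shown because their genes had the largest differences among the targets, again as 250 bases before the start in GRCm38.p6. Smad6 lies on the minus strand at chr9:64022060-64022309 and Id3 on the plus strand at chr4:136143572-136143821, and capitals mark the same motifs as above.
Smad6: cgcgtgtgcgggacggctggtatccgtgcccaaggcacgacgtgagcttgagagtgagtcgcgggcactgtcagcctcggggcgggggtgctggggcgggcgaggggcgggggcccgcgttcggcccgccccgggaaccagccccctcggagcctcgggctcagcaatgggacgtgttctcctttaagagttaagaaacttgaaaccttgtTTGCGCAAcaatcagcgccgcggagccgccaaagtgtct
Id3: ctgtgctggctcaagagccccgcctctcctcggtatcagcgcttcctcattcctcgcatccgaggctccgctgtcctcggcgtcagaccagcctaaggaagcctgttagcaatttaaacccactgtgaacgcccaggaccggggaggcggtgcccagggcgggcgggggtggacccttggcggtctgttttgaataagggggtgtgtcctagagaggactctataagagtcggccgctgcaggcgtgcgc
The GC-rich element GGCGCC, present in 9.54% of promoters, was in neither of these windows. It stood 231 to 226 bases before the start of Id2, and Smad6 held a C/EBP match 39 to 32 bases before its start. Both windows were rich in CG pairs, with 27 in Smad6 and 18 in Id3, against 2 in Ppbp, 1 in Pf4 and 7 in Cxcl3.

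The TGF-beta and activin genes were split, with 4 higher and 3 lower of 33. Fst, the activin antagonist follistatin, gave 378, 330.4 and 287 in KC1 and 1978, 2027 and 1599 in KC4 (-2.49, SE 0.20). The ligand gene Tgfb3 was lower in KC1 (-2.33, SE 0.36) and Tgfb1 higher (1.16, SE 0.075), and Inhbb was lower (-1.03). Ltbp3, which binds latent TGF-beta, was higher (1.87, SE 0.076), as were the activin receptor genes Acvr2b (1.31) and Acvr1b (1.13). Acvr2b lost its call with the mean of its probe sets. The receptor genes Tgfbr1 (0.40) and Tgfbr2 (-0.25) were not called.

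Of the Wnt pathway genes 9.43% were called and of the Notch genes 7.41%, against 5.54% over all genes. Of 53 Wnt pathway genes, 3 were higher and 2 lower. Axin2, a feedback target of beta-catenin, gave 98.9, 138 and 163 in KC1 and 814, 790 and 849 in KC4 (-2.65, SE 0.31), and Rnf43, which removes Wnt receptors, was lower by -1.09. The receptor genes Fzd7 (1.64) and Fzd1 (1.37) and the R-spondin receptor gene Lgr6 (1.85) were higher. Of 27 Notch genes, the ligand gene Jag1 was higher (2835, 2887 and 2674 against 573, 720 and 867, 1.98) and the ligand gene Dll1 lower (-1.46, SE 0.067).

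Growth factor genes of the FGF, PDGF, HGF and VEGF families held 5 higher and 2 lower in KC1 of 37, with a median of 0.12. Under quantile normalization and under median centring the counts were 4 and 2. Fgf13, an intracellular FGF relative, gave 643, 580.2 and 688 in KC1 and 12.3, 12.3 and 66.8 in KC4 (4.62, SE 0.47), and its other probe set was not called (0.79). Pgf, placental growth factor, gave 347, 231 and 238 against 16.99, 19.3 and 22.7 (3.77, SE 0.33). Vegfb (1.28), Angptl4 (1.26) and the receptor gene Flt4 (1.02) were higher. Vegfd (-1.15) and Fgf18 (-1.83) were lower, and Fgf18 lost its call when any 1 of the 6 arrays was left out. In the IGF axis 3 genes were higher and 1 lower of 16. Igfbp4 gave 9513, 9606 and 9621 in KC1 and 818, 1018 and 934 in KC4 (3.38, SE 0.088). Igfbp3 (2.14) and the serine protease gene Htra1 (1.70) were higher too, while Igfbp7 was lower, at 1188, 1130 and 1059 against 7723, 6299 and 7157 (-2.65).

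K-ras lies upstream of MAP kinase, and 4 of 34 of its output and feedback genes were called (11.8%, against 5.54% over all genes). Of these, Spred3 (1.25), Egr3 (1.19) and Egr1 (1.10) were higher and the phosphatase gene Dusp8 lower (-1.33), with a median of 0.13. With the mean of their probe sets Egr3 and Dusp8 were no longer called. Egfr (1.01) was the 1 called gene of 16 in the EGF receptor family, and 2 of its 6 other probe sets were lower in KC1 (-0.92 and -0.64). Egfr lost its call under quantile normalization, median centring, a pseudocount and the mean of its probe sets, and without KC1 replicate 1 or KC4 replicate 1. Among 27 YAP and TEAD targets, Amot, a YAP inhibitor, was higher (576, 484 and 517 against 57.0, 51.2 and 19.2, 3.78). One of its other probe sets did not move (-0.05). Nuak2 was higher (1.68) and Nt5e lower (-1.56).

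Genes of cell contacts were read by type of junction. Of 31 genes of epithelial adhesion and identity, 4 were higher and 1 lower, and the median was 0.36. Their summed signal was 64580 to 68100 in KC1 and 45970 to 50770 in KC4. Ap1m2, a subunit of the adaptor that sorts proteins to the basolateral membrane, gave 4158, 4085 and 3799 in KC1 and 771, 600.5 and 596 in KC4 (2.62, SE 0.094). Mal2 (2.40), which acts in apical transport, Prom1 (2.29) and the membrane protease gene Prss8 (1.97) were higher, and the P-cadherin gene Cdh3 was lower (-1.45). Prom1 lost its call at a floor of 64. Cdh1 differed by -0.26, Epcam by 0.97 and the splicing regulator gene Esrp1 by 0.42, and none of them was called.

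Claudins seal and select at tight junctions. Cldn18, known from lung and stomach, gave 2739, 2928 and 2930 in KC1 and 144, 169 and 155 in KC4 (4.20, SE 0.10, limma adjusted p = 1.79e-08). Cldn2, a pore-forming claudin, gave 475, 400.0 and 464 against 84.5, 16.7 and 84.8 (3.17, SE 0.53), though a second probe set did not differ (208 and 195 in the mean). Cldn23 (1.93), Cldn8 (1.67), Cldn4 (1.57) and Cldn3 (1.30) were higher as well. Cldn9 was the 1 lower member (71.8, 59.8 and 68.9 against 321, 298 and 292, -2.19). Cldn7 (0.94) and Ocln (0.59) were higher by less than the minimum. The median over the 24 members was 0.45, and their summed signal was 53860 to 55520 in KC1 and 33990 to 35040 in KC4.

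Among 14 desmosome genes, Dsc2, a desmosomal cadherin, was called. It gave 345, 745 and 372 in KC1 and at most 10.1 in KC4 (at least 4.84), while Dsg2 (0.73) and Dsp (-0.64) were within the minimum. Keratins went the other way, with 1 higher and 4 lower of 18. Krt14, a basal keratin, gave 5228, 4504 and 4791 in KC4 and 12.1, 48.7 and 41.6 in KC1 (-7.24, SE 0.35), with 1 KC1 array at the floor. One other Krt14 probe set differed as much (-7.47) and one was not called (-1.28). The neighbouring Krt16 (-2.04) and Krt17 (-1.24) were also lower, but dim, and neither was called at a floor of 64. Such related keratins can share array probes. The basal genes Krt5 (0.04) and Trp63 (0.05) did not pass the test, Krt15 lay at the floor in both lines, and Krt23 was lower (-1.15). The intestinal keratin gene Krt20 was higher (1.59).

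Mesenchymal genes held 5 lower and 0 higher members of 29. After Cdh2 came S100a4, a calcium-binding protein known from motile cells, with 381, 365 and 369 in KC1 and 3360, 3131 and 3285 in KC4 (-3.13, SE 0.081). Ncam1 (-2.86, SE 0.16), the intermediate filament gene Vim (4052, 3875 and 3783 against 13790, 11870 and 13040, -1.72) and Nt5e completed them. Most of the list did not move, and its median was -0.06. The transcription factor genes of epithelial-mesenchymal transition were not called. Snai1 differed by -0.55, Zeb1 by -0.06 and Zeb2 by -0.83, Twist1 lay at the floor, and Snai2 was higher by 0.93. Fn1 differed by 0.35.

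Matrix proteases and their inhibitors held 5 higher and 4 lower of 32. Besides Mmp13, the urokinase gene Plau (1972, 2034 and 2017 in KC1 against 489, 510.2 and 521 in KC4, 1.99), its inhibitor Serpinb2 (1.59), the stromelysin gene Mmp10 (1.29) and Adamts1 (1.24) were higher. The tissue inhibitors of metalloproteases Timp1 and Timp3 were lower. Timp3 gave 67.6, 90.2 and 4.77 against 2534, 2430 and 2603 (-5.78, SE 0.54), and Timp1 gave 1738, 1644 and 1554 against 4361, 3632 and 4132 (-1.29). The membrane-bound proteases Mmp14 (-2.33, SE 0.077) and Mmp24 (-2.02, SE 0.099) were lower. The called secreted members, Mmp13 and Mmp10, thus lay on the KC1 side and the called membrane-bound ones on the KC4 side. Mmp2 (0.00) and Mmp9 (-0.86) were not called.

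Collagens and laminins held 2 higher and 3 lower of 34. Nid1, the basement membrane linker nidogen, gave 443, 503 and 535 in KC1 and 3.42, 11.5 and 19.9 in KC4 (4.84, SE 0.29), and Col8a1 was higher by 1.67. The 2 other Nid1 probe sets lay near the floor in both lines and were not called. Col6a1 was lower (-3.57, SE 0.34), as were the neighbouring basement membrane genes Col4a1 (2453, 1959 and 2305 against 5475, 6128 and 6387, -1.43) and Col4a2 (-1.39). Of 21 collagen-modifying enzymes, Plod2, a lysyl hydroxylase, gave 3584, 3662 and 3563 in KC1 and 210, 266 and 266 in KC4 (3.87, SE 0.085). Pcolce2 (1.48) was higher, and P4ha3 (-3.24) and Colgalt1 (-1.04) lower. Matricellular proteins leaned to KC4, with 1 higher (Efemp1, 3.23) and 4 lower of 38, among them Ccn4 (-3.76) and the proteoglycan gene Bgn (-1.10). Of 36 integrin and focal adhesion genes, 1 was called, Itgb6 (-1.25).

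Transcription factors of development were called in both directions, 7 higher and 8 lower of 78. Nr2f1, an orphan nuclear receptor, gave 575, 736 and 727 in KC1 and at most 12.7 in KC4 (at least 5.40). Zfhx4, a zinc finger homeobox gene, gave 290.3, 343 and 288 against at most 6.99 (at least 4.26), and its second probe set differed by 3.99. Nr2f2 (1.32), Eya1 (1.49), Sox9 (1.90), Sox12 (1.63) and Sox11 (1.30) were higher. Runx3 gave 444, 501 and 443 in KC4 and 4.69, 30.04 and 5.57 in KC1 (-4.55, SE 0.34). Irx1 gave 571, 486 and 428 against 72.5, 29.6 and 9.89 (-3.92, SE 0.44). Sox7 (-2.15), Klf4 (-1.58) and the estrogen receptor gene Esr1 (-2.46, with other probe sets at -1.04 and -0.21) were lower beside Myrf, Pparg and Gata3. Of the 2 other Sox9 probe sets, one was called higher (1.33) and a dim one was not called (-0.23).

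Lung lineage genes went both ways, with 4 higher and 3 lower of 36 (19.4% called, against 5.54% over all genes). Cebpa, a factor of alveolar maturation, gave 662, 685 and 769 in KC1 and 29.7, 66.5 and 14.3 in KC4 (4.48, SE 0.43). The mucin gene Muc1 (2.14, SE 0.11) and the collectin gene Sftpd (1.59) were higher. Aqp5, the alveolar type 1 water channel, was lower (226, 255 and 175 against 1470, 1418 and 1432, -2.74), as were Id2 and the dim Nkx2-1 (-1.23). Gut-like and mucin genes had 6 higher and 1 lower of 38. Gpa33, an intestinal surface antigen, gave 663, 438 and 590 in KC1 and 37.6, 31.9 and 34.8 in KC4 (4.00, SE 0.25). The tetraspanin gene Tspan1 (725, 797 and 811 against 97.2, 66.9 and 96.3, 3.18), Fabp2 (1.99) and Onecut2 (1.85) were higher with Aqp8 and Cldn18, and the protease gene Ctse was lower (-1.51). Hnf4a (-0.47) and Gata6 (-0.24) were not called.

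The NRF2 and glutathione list held 2 higher and 6 lower of 42. The glutathione transferase genes Gstt2 (242, 212 and 246 against at most 6.73, at least 3.86) and Gstt1 (2.08) were higher in KC1. Nqo1, a quinone reductase, gave 54.5, 52.9 and 32.9 against 169, 176 and 161 (-1.89, SE 0.38). Gsta2 (-1.68), the cystine transporter gene Slc7a11 (-1.40), Gstm2 (-1.38), heme oxygenase Hmox1 (-1.38) and Gclm (-1.22) were lower, while Gclc did not differ beyond its error (-0.06, SE 0.098). Of 39 aldehyde, aldo-keto and cytochrome P450 genes, 2 were higher and 4 lower. Aldh3a1 gave 1628, 1681 and 1635 in KC4 and 159, 154 and 146 in KC1 (-3.43, SE 0.12), and Aldh2 (-1.68) and Aldh1a1 (-1.33) were lower. The neighbouring Akr1c12 (2.54) and Akr1c13 (1.36) were higher, and these near-identical genes can share probes.

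Genes of the ATF4 response, which supplies amino acids under stress, leaned to KC4. Slc7a5, a leucine transporter, gave 3775, 3999 and 3635 in KC1 and 10760, 9581 and 11020 in KC4 (-1.46, SE 0.066). Its partner Slc3a2 (-1.01), Herpud1 (-1.37), Trib3 (-1.16) and Chac1 (-1.12) were lower, and Vldlr was higher (1.31). Atf4 itself (-0.51), Asns (-0.13) and Ddit3 (0.54) were not called. Of 30 amino acid transporters, 4 were lower and 0 higher. They were Slc7a6 (-1.24) and Slc7a5, Slc7a11 and Slc3a2, which the ATF4 list also counts. Slc7a5, Slc7a6 and Herpud1 lie on chromosome 8, whose shift is given below. Slc3a2 sat at the limit and lost its call under quantile normalization and without any of 3 single arrays (KC1 replicate 3, KC4 replicates 1 and 3).

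Proliferation genes had few calls. Of 43 DNA replication genes, the cyclin gene Ccne2 (-1.005) was called, and Mki67, a proliferation marker, differed by -0.48. The medians were -0.09 for replication and -0.21 for mitosis. Among 34 glycolysis and hypoxia genes, Bnip3 (8857, 7969 and 8079 against 3080, 2727 and 2664, 1.56), the lactate exporter gene Slc16a3 (1.28) and the oxygen sensor gene Egln3 (1.26) were higher and 0 lower. The median of that list was 0.23, and its summed signal was 147600 to 154100 in KC1 and 114600 to 128300 in KC4. Sums without overlap were not particular to it. Mitosis genes, with 0 called, summed to 109200 to 114400 in KC1 and 120300 to 129700 in KC4. Egln3 lost its call when any 1 of the 6 arrays was left out. Of 30 cholesterol and fatty acid synthesis genes, Dhcr7 was lower (-1.03). Among 34 p53 targets and CDK inhibitors, Trp53inp1 (1.60) and Eda2r (1.04) were higher and Gadd45a lower (-1.003), and Ccnd1 (0.12) and Cdkn1b (0.26) were not called.

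Further lists held single large differences. Tm4sf1, a tetraspanin-like membrane protein, gave 273, 324 and 308 in KC1 and at most 10.0 in KC4 (at least 4.23), and the annexin gene Anxa8 gave 248, 201 and 291 against 2095, 2067 and 2006 (-3.07). Their list of tetraspanins, S100 proteins and annexins had 5 higher and 4 lower of 47. Ion and water channels had 6 higher and 5 lower of 48, with the chloride channel gene Clic3 lower (-2.01) and Aqp3 higher (1.47). Guidance genes had 6 higher and 1 lower of 49, led by Ephb6 (2.30), Sema3a (1.80) and Slit2 (1.51), with Unc5b lower (-1.28). Of 44 chromatin regulators, Hmgn3 (3465, 3303 and 3225 against 578, 683 and 603, 2.43) and Smarca1 (1.78) were higher beside Smarca2. The neuronal list had 4 higher and 2 lower of 47, with Dpysl3 (3.06), Bex1 (2.28), Bex4 and Gng2 on one side and the neuronal tubulin gene Tubb3 (-4.09, SE 0.49) and Ncam1 on the other. Tex15 (2.05) and Rhox5 (1.26) were higher among 26 germline genes.

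Imprinted genes included neighbours on the proximal part of chromosome 6. Sgce gave 204, 217 and 241 in KC1 and 14.8, 39.3 and 77.8 in KC4 (2.59, SE 0.64), and it lost its call without KC1 replicate 3. Ppp1r9a (2.01, SE 0.19) and Casd1 (1.27, SE 0.21) were also higher, and Gatm, on chromosome 2, was lower (-2.08, SE 0.11), giving 3 higher and 1 lower of 33. Runs of 3 called neighbours were found on chromosomes 1 (Dtl, Ints7 and Lpgat1), 6 (Pex26, Tuba8 and Usp18), 7 (Nr2f2, B130024G19Rik and Mctp2) and 13 (Akr1c13, Akr1c19 and Akr1c12), all higher in KC1. Lower runs of 3 were on chromosomes 8 (Fcho1, Zfp709 and Zfp882) and 11 (Krt14, Krt16 and Krt17).

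Medians over whole chromosomes were also compared. For 8728 genes with a mean log2 signal of at least 8, each gene was set against its mean over the 12 arrays, and the median was taken per chromosome and array. Chromosome 8, with 483 such genes, had medians of 0.35, 0.33 and 0.32 on the KC4 arrays and of -0.06, -0.04 and -0.05 on those of KC1, with no overlap. KC2 (mean -0.19) and KC3 (mean -0.07) lay below KC4 as well. The KC1 minus KC4 value was -0.38 on chromosome 8 and between -0.21 (chromosome 14) and 0.09 (chromosome 17) on the 19 others. On chromosome 8, 84.3% of these genes were lower in KC1, against 47.4% elsewhere.

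On chromosome 8 the shift ran over the whole length. In 12 consecutive blocks of about 40 genes it lay between -0.54 and -0.30, and 72.5% to 92.5% of the genes of each block were lower in KC1. Of 198 blocks on other chromosomes, 5 lay under -0.2, and 4 of these were on chromosome 14 and 1 on chromosome 11. Chromosome 14 was lower in KC1 in all 7 of its blocks (-0.32 to -0.145), with 71.3% of its 300 genes lower. Its medians ran from -0.098 to -0.083 on the KC1 arrays and from 0.105 to 0.135 on the KC4 arrays, and Bmp4 and Mmp14 lie on it. At the level of calls, 4.94% of the chromosome 8 genes were lower in KC1 and 1.82% higher, while over all genes the shares were 2.05% and 3.49%. Of the 85 listed genes called lower in KC1, 10 lie on chromosome 8, and so do 46 of the 373 lower calls over all genes. The listed ones are Cdh3, Col4a1, Col4a2, Colgalt1, Herpud1, Hmox1, Nqo1, Slc7a5, Slc7a6 and Tubb3. DNA copies were not measured, and what lies behind these shifts was not tested. With 3 arrays against 3 an exact permutation test cannot go below 0.10, so no p is given. The 2 highest blocks leaned to KC1. The first block of chromosome 6, from Samd9l to Ccdc136, had a value of 0.355. Of its 109 genes of any signal, 13 were called higher and 1 lower, against 3.49% and 2.05% over all genes. This block holds Casd1, Sgce, Ppp1r9a, Gpr85 and Mdfic. A block on chromosome 1 from Srp9 to Cr1l had a value of 0.341. Of its 83 genes of any signal, 14 were called higher and 1 lower, and it holds Dtl, Ints7 and Lpgat1. Chromosome 8 and these 2 blocks were picked by their KC1 minus KC4 values. Their called shares follow partly from that choice.

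**Figure D5:**
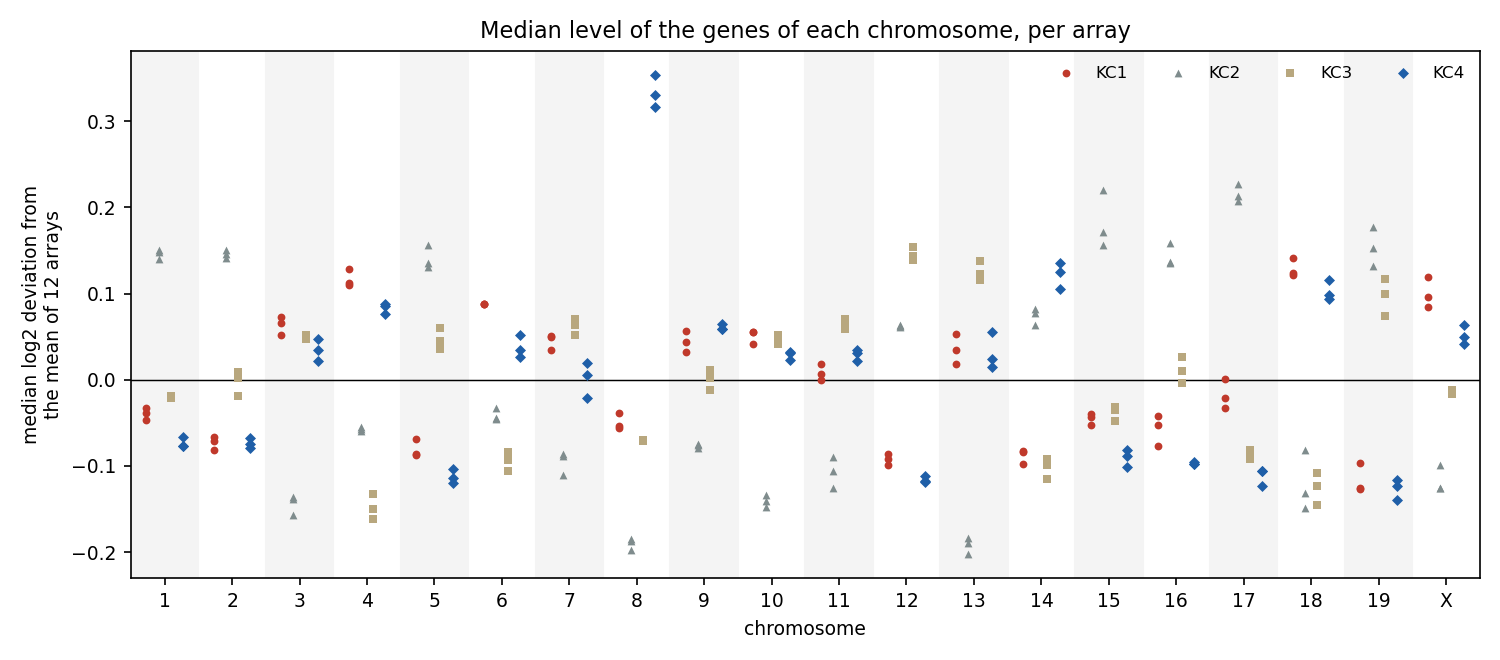
Median log2 deviation from the mean of 12 arrays over the genes of each chromosome (mean log2 signal of at least 8), with 1 symbol per array. The 3 KC4 arrays stand at 0.32 to 0.35 on chromosome 8, above the arrays of the other lines, and chromosome 14 shows the next widest gap between KC1 and KC4.

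Last, KC1 was set against the mean of KC2 and KC3, the lines that share its label. This contrast called 732 genes (4.02%), 511 higher (2.81%) and 221 lower (1.21%) in KC1. It shares the KC1 arrays with the comparison to KC4, so the 2 results are given side by side and no overlap is counted. Dsc2 was 4.84 higher than KC4 and 4.84 higher than the mean of KC2 and KC3, with all arrays of the 3 other lines at the floor, and Zfhx4 was likewise 4.26 and 4.26 higher. Nr2f1 was 5.40 and 4.85 higher, Eif2s3y 6.05 and 4.59, and Mdfic 4.35 and at least 6.70 (KC2 and KC3 lay at the floor). Prl was 6.04 and 4.91 higher, with a mean signal of 15970 in KC1, 94.6 in KC2 and 4300 in KC3.

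On the lower side, the rule gave Xist (-6.07 and -3.28), Bmp2 (-3.43 and -2.68), Padi3 (-3.82 and -2.66), Esr1 (-2.46 and -3.79), Cldn9 (-2.19 and -3.22) and the bradykinin receptor gene Bdkrb2 (-2.15 and -2.83). For some of them the mean of KC2 and KC3 joins unlike lines. Xist had a mean signal of 170 in KC1, 187 in KC2 and 14810 in KC3. Cldn9 had 66.8, 70.9 and 5572, so for both genes KC1 lay beside KC2 and the second value came from KC3. Bmp2 (51.0 in KC1, 527 in KC2, 204 in KC3), Padi3 (175, 513 and 2360), Esr1 (52.4, 614 and 468) and Bdkrb2 (55.6, 215 and 687) were lower in KC1 than in each of these lines.

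Other leading genes are given as mean signals in the order KC1, KC2, KC3 and KC4. Pgrmc1 was 5182, 5619, 3500 and 87.2, with KC4 far below the rest. Rnf128 was 2782, 6497, 1048 and 134, and Igfbp4 was 9580, 13540, 6439 and 923, so KC1 lay between KC2 and KC3 for both. Bmp4 was 124, 173, 150 and 3538, with KC4 apart from the other lines. Mmp13 was 3423, 714, 161 and 56.9, highest in KC1. Vim was 3903, 110, 746 and 12900, with KC1 below KC4 and above KC2 and KC3. Smad6 was 60.1, 233, 144 and 653, and Id3 was 468, 1507, 1502 and 4436. Both were lowest in KC1, at -1.60 (Smad6) and -1.68 (Id3) from the mean of KC2 and KC3.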

How the data were processed

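RNA of each line was hybridised to 3 one-colour Affymetrix arrays. The deposited value table holds linear signal intensities of 45101 probe sets, made by the authors with software not given in the sources used here. The mean of each array without its lowest and highest 2% was 500.0, so the arrays had been scaled to one level. Intensities under 16 were set to 16 and log2 was taken. Control probe sets (64), probe sets with several symbols (932) and unlisted ones (9160) were left out, and the brightest of the 34945 others stood for each of 18193 genes. A limma 3.58.1 fit (R 4.3.3) over all 4 lines gave differences, SEs and Benjamini-Hochberg adjusted p-values over all genes. The p-values measure the spread between arrays of a line, which may be technical.

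Genes were named by rank (12 in each direction above the floor, 8 with the dimmer line at the floor, 4 called members of a list, 6 in each direction for both contrasts), with runs of at least 4 neighbours and other list members added. Members and lists were chosen with earlier results of these data known. On simulated data the fit recovered 98% of genes changed by 2 log2 units. The changed genes were all drawn from those with a mean log2 signal over 8, so this share does not cover dimmer genes. Alternatives were other scalings, floors, filters, priors and probe sets, a replicate block, and leaving out each array. Over 12729 genes, same-numbered arrays of KC1 and KC4 correlated at 0.116, -0.025 and 0.021, so the numbers do not pair them. Promoters were the 250 bases before the RefSeq start.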

Additional observations from a re-analysis of the deposited data

Results flagged for a closer look

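For 11 called genes, KC1 stood on one side of KC4 while KC2 and KC3 stood on the other. KC1 exceeded the mean of KC2 and KC3 by 6.70 for Mdfic, 6.62 for Bex1, 5.82 for Myo5c, 4.04 for Dram1, 3.84 for Casd1, 3.83 for Vldlr, 3.23 for Lrrk2, 3.01 for Pcdh19, 2.65 for Ddit4l and 2.21 for Flt4 on the log2 scale. Mdfic and Dram1 lay at the floor in KC2 and KC3, Bex1 in KC2 and Myo5c in KC3, so these 4 values are lower bounds. Rnf217 was lower in KC1 than in KC2 and KC3 (-2.77) and higher in them than in KC4. These values share the KC1 arrays with the comparison to KC4, and the genes were picked by that pattern, so they are a description.

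Control probe sets outside the comparison also differed. For 18S ribosomal RNA, the 5-prime control averaged 604.6 in KC1 and 3305 in KC4. Of 9160 probe sets that the platform annotation used here does not list, limma called 279 between KC1 and KC4 (195 higher and 84 lower, 3.05%). Neither was followed to a source.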

How the results depend on the processing

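The number of genes called between KC1 and KC4 stayed within 1.5 times of 1008 under quantile normalization (1029), median centring (1018), a floor of 64 (829), a pseudocount (926), the mean of probe sets (947), a test of every probe set (1261), a fit of only the 2 lines (967), a trended robust prior (1029) and without floored genes (1023). Leaving out 1 array gave 967 to 1010 genes, 610 to 656 higher and 338 to 386 lower. Similar totals did not mean the same genes. Of the 1008, 197 lost their call at a floor of 64, 183 with the mean of probe sets and 118 with a pseudocount. Without 1 array, 106 to 130 lost it. Without the dimmer 50% of genes there were 500 (324 higher, 176 lower), with a minimum difference of 2 there were 311 (217 and 94), and with no minimum 4675 (2448 and 2227). For KC1 against the mean of KC2 and KC3 the same 3 settings gave 305 (204 and 101), 192 (162 and 30) and 4805 (2498 and 2307), and leaving out 1 KC1 array gave 698 to 744. Fewer genes tested or another minimum sets these counts.

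With the replicate number as a block, 992 genes were called between KC1 and KC4, and Fgf18 and Krt17 were the 2 of 163 named genes that lost their call. No named gene changed direction under the settings above. In other probe sets of the same gene the sign turned for Gpr85 (-0.179), Egfr (-0.918 and -0.638), Egr3 (-0.185), Amot (-0.046), Tap1 (-0.239), Aldh2 (0.087) and Sox9 (-0.228), and none of these was called. The cause was not tested. Of the 163 named genes, 15 lost their call at a floor of 64 and 11 with the mean of probe sets. Chosen after seeing the data, the chromosome 8 median was -0.392 under quantile normalization, -0.412 under median centring and -0.336 with the mean of probe sets. The number of arrays limits the precision, and dim genes vary most.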
